A study of Bos taurus with 24 samples.

Results

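The aryl hydrocarbon receptor (AHR) and a group of cytochrome P450 genes were followed in bovine dermal fibroblasts through a lipopolysaccharide (LPS) challenge. The 7 genes were CYP3A4, CYP1A1, CYP1B1, CYP7B1, AHR, AHRR and TIPARP. They were selected by gene symbol with measured results of these samples already known, so their counts of calls are descriptions and not independent evidence. Each symbol stood on 1 of the 27550 rows that carry a symbol, among 59846 rows in all.

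AHR is a ligand-activated transcription factor that waits in the cytoplasm with HSP90 and other chaperones. After binding planar aromatic compounds or some tryptophan and lipid metabolites it pairs with ARNT in the nucleus and drives genes such as CYP1A1 and CYP1B1. AHRR, the AHR repressor, and TIPARP, a poly-ADP-ribose polymerase family member, are targets that act back on the receptor. CYP1A1 and CYP1B1 oxidise aromatic compounds and oestrogens, CYP3A enzymes oxidise steroids and many drugs, and CYP7B1 is the oxysterol 7-alpha-hydroxylase that sits on the path to ligands of the receptor GPR183. In skin, CYP1B1 and AHR are known from fibroblasts as well as from keratinocytes, whereas CYP3A4 is best known from liver and gut.

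RNA-Seq was made from cultures of 4 Holstein and 4 Angus heifers of similar age, a dairy and a beef breed, before LPS (hour 0) and 2 and 8 hours into the challenge, which gave 24 samples in 6 groups of 4. LPS, the endotoxin of Gram-negative bacteria, was given at 100 ng/ml, and the hour 0 cultures had none. Each culture was a frozen and revived fibroblast line from a shoulder skin biopsy of 1 animal, and the lysates of paired wells were combined, so each sample was 1 animal at 1 hour. No untreated culture was carried to hours 2 and 8 in this set, so time in culture and LPS cannot be told apart. Likewise, breed cannot be told apart from the way each herd was reared.

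Total counts per sample were 51014538 to 104406293, so that 1 CPM, a count scaled to the size of its library, stood for 51.0 to 104.4 counts. The 9 fibroblast markers summed to 39230 to 127600 CPM per sample, and none was absent. The sums for the other cell types were 1.03 to 15.6 CPM for 7 keratinocyte markers, 2.03 to 5.22 CPM for 5 endothelial markers, 2.05 to 5.70 CPM for 6 leukocyte markers and 0.0289 to 1.15 CPM for 4 hepatocyte markers. The melanocyte sum of 5.63 to 12.2 CPM was led by MITF, which fibroblasts also express. By breed, the keratinocyte sum was 1.26 to 15.6 CPM in Holstein and 1.03 to 1.87 CPM in Angus cultures. Its part in the breed differences below was not tested. IL8, the chemokine used as a check of the challenge, was 8.36 ± 0.45 (SE) higher on the log2 scale at 2 h than at 0 h. In coverage per count of COL1A1, 4 samples stood apart from the other 20. They were Angus animal 4 and Holstein animals 2 and 4 at hour 0, and Angus animal 3 at hour 2. Below they are called the samples counted differently, but the processing notes used here give no cause and none was tested. In COL1A1, 1 count stood for 66.2 to 67.1 bases of coverage in these 4 samples and for 111.8 to 119.0 bases in the rest. In each of the 7 genes, however, the bases per count of these 4 samples overlapped those of the other 20. For TIPARP they were 87.5 to 89.2 against 87.4 to 90.3, and for CYP3A4 62.1 to 72.2 against 62.0 to 68.3. In bulk RNA, fewer cells that express a gene and less RNA per cell cannot be told apart.

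Of the 7 genes, CYP3A4, CYP1B1, CYP7B1, AHR and TIPARP were above 1 CPM in all 24 samples. CYP1A1 was under 1 CPM in 21 of 24 samples, and AHRR in 5 of 24. CYP1A1 therefore failed the filter of at least 1 CPM in 50% of the samples in all 8 comparisons and was not tested, while the other 6 genes were tested in each. A gene was called when its FDR was under 0.05, its fold change at least 2 and its average CPM above 1. The levels below are CPM after TMM scaling, listed for animals 1 to 4 of a breed, and log2 fold changes are followed by their SE. Rows span whole genes and were not divided by length, so levels are not compared between genes.

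**Figure D1:**
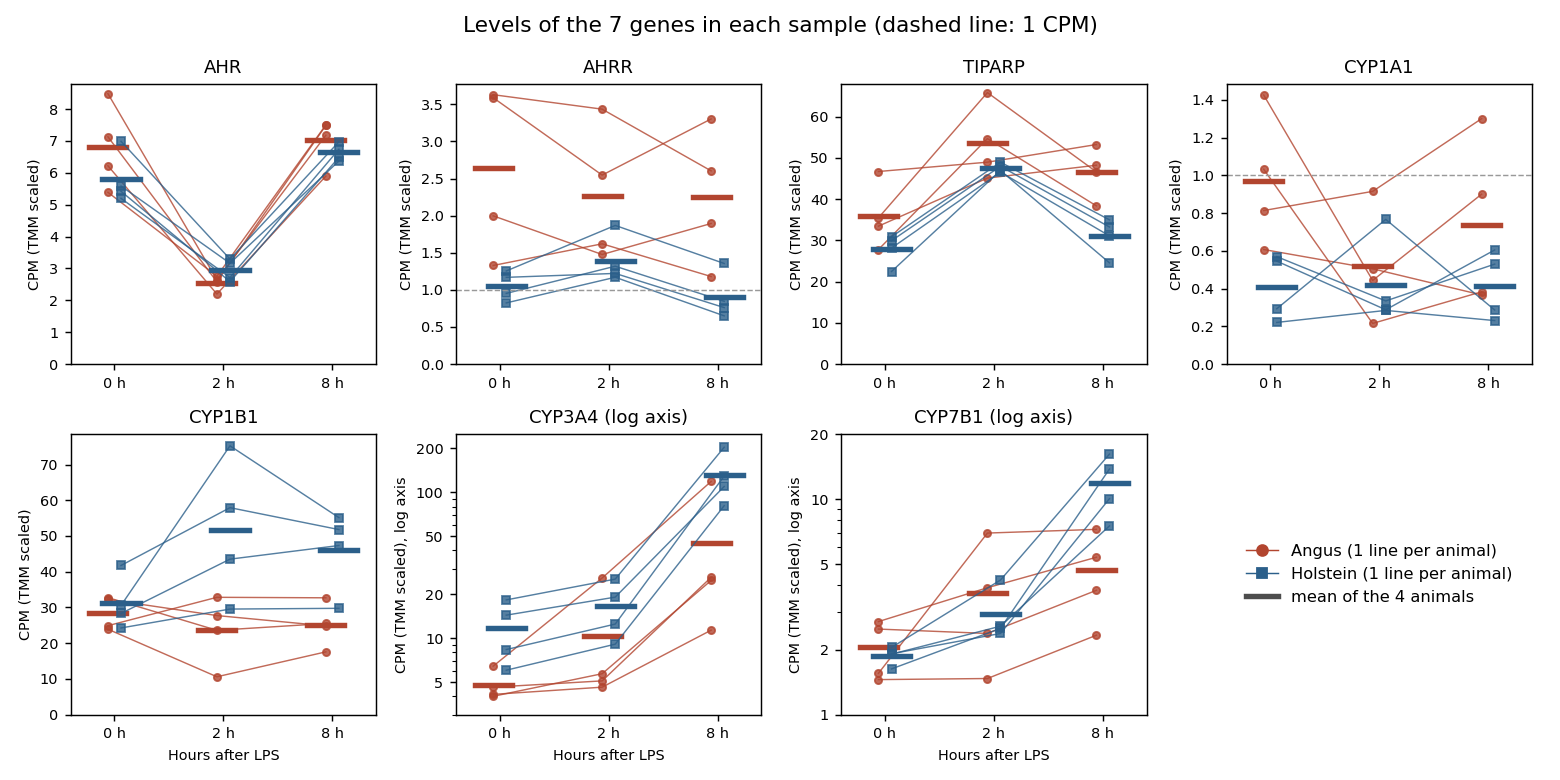
Level of each of the 7 genes (y axis, TMM-scaled CPM; log axes for CYP3A4 and CYP7B1) by hour after LPS (x axis: 0, 2 and 8 h), with a thin line for each animal and a thick bar for the mean of the 4 animals of a breed. AHR dips at 2 h in all 8 animals, CYP3A4 and CYP7B1 are higher at 8 h than at 0 h in all 8, and CYP1A1 is mostly under the dashed line at 1 CPM.

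The first comparison asked what changed over the hours with the breeds combined. At hour 2 post-LPS, 1 of the 6 tested genes was called, AHR, against 2.82% of all 20157 rows tested. At hour 8 against hour 0, CYP3A4 and CYP7B1 were called, 2 of 6 against 1.42% of 20368 rows. Between hours 2 and 8, CYP3A4, CYP7B1 and AHR were called, 3 of 6 against 2.76% of 20291 rows. CYP1B1 and AHRR were called in none of these.

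AHR, the receptor itself, lies on chromosome 4 from 25785292 to 25835397 (UMD v3.1, plus strand). AHR was in the Angus cultures at 7.13, 6.22, 5.39 and 8.48 CPM at hour 0, at 2.58, 2.20, 2.75 and 2.64 CPM at hour 2, and at 7.49, 5.90, 7.50 and 7.18 CPM at hour 8. In Holstein cultures AHR was at 5.58, 5.20, 6.99 and 5.42 CPM at hour 0, at 3.16, 2.71, 3.29 and 2.58 CPM at hour 2, and at 6.37, 6.74, 6.97 and 6.48 CPM at hour 8. Every hour 2 sample lay below every sample of hours 0 and 8, and the breeds overlapped at each hour. AHR fell 2.31-fold at hour 2 (log2 fold change -1.21 ± 0.13, edgeR FDR = 4.3e-17) and rose 2.50-fold from hour 2 to hour 8 (1.32 ± 0.11, edgeR FDR = 1.6e-31). At hour 8 against hour 0 the difference was 0.11 ± 0.12 (edgeR FDR = 0.629), so the hour 8 level was not told apart from that before LPS.

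The fall of AHR was seen within each animal. The log2 change from hour 0 to hour 2 was -1.40 ± 0.31 (SD, n = 4) in the Angus cultures and -0.98 ± 0.12 (SD, n = 4) in the Holstein cultures. The difference between breeds in that change was 0.45 ± 0.24 (SE, edgeR FDR = 1.00) and was not called. From hour 2 to hour 8 the rise was 1.46 ± 0.05 (SD, n = 4) in Angus and 1.18 ± 0.16 (SD, n = 4) in Holstein cultures. The 4 Angus rises were all larger than the 4 Holstein rises, a difference that was not tested.

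The interval with no gene symbol that follows AHR downstream, from 25835398 to 26302928, was not called in either comparison. This interval was singled out after its values were seen. Its log2 fold change was -0.18 ± 0.10 (edgeR FDR = 0.188) at hour 2 against hour 0, lower in 4 of 4 Angus and 3 of 4 Holstein animals, and 0.18 ± 0.09 (edgeR FDR = 0.132) at hour 8 against hour 2. It held 29184 counts over the 24 samples where the AHR row held 10259, and whether its reads come from AHR transcripts was not tested.

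AHRR, on chromosome 20 from 71817041 to 71882980 (minus strand), was the gene nearest to the 1 CPM limit among those tested. AHRR stood in the Angus cultures at 3.59, 1.33, 2.00 and 3.63 CPM at hour 0, at 2.55, 1.62, 1.48 and 3.44 CPM at hour 2, and at 3.30, 1.18, 1.89 and 2.60 CPM at hour 8. In Holstein cultures AHRR stood at 0.823, 0.952, 1.25 and 1.17 CPM at hour 0, at 1.17, 1.32, 1.87 and 1.22 CPM at hour 2, and at 0.649, 0.845, 1.36 and 0.760 CPM at hour 8. Angus animals 1 and 4 were highest at each hour, and the breeds did not overlap at hour 0 and overlapped at hours 2 and 8. With breeds combined AHRR was not called between hours, with log2 fold changes of -0.02 ± 0.34 (2 h against 0 h), -0.24 ± 0.39 (8 h against 0 h) and -0.22 ± 0.34 (8 h against 2 h).

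TIPARP, on chromosome 1 from 111829354 to 111857046 (minus strand), was higher at hour 2 by less than the 2-fold limit. TIPARP was in the Angus cultures at 46.7, 27.8, 35.4 and 33.4 CPM at hour 0, at 48.9, 54.7, 65.8 and 45.1 CPM at hour 2, and at 53.2, 38.4, 46.6 and 48.2 CPM at hour 8. Holstein cultures had TIPARP at 22.4, 28.1, 30.9 and 29.9 CPM at hour 0, at 46.9, 46.5, 48.9 and 48.0 CPM at hour 2, and at 24.5, 31.1, 35.0 and 33.2 CPM at hour 8. All 4 Holstein samples at hour 2 lay above all Holstein samples of hours 0 and 8, whereas the Angus hours overlapped. The log2 fold change at hour 2 was 0.66 ± 0.13 (1.58-fold, edgeR FDR = 7.3e-06), with a higher level in 8 of 8 animals. At hour 8 against hour 0 it was 0.28 ± 0.16 (edgeR FDR = 0.298), with a higher level in 8 of 8 animals. With the animal as a replicate block that value was 0.27 (edgeR FDR = 7.4e-05), still under the fold limit. Against hour 2 the hour 8 value was -0.38 ± 0.14 (edgeR FDR = 0.0366).

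Thus TIPARP and AHR, a target and its receptor, had hour 2 changes of opposite sign in these cultures. The other listed genes of the AHR pathway gave no calls. Of 17 genes listed, 16 were on a row and 12 were tested, and over all 8 comparisons the calls were those of AHR, AHRR and CYP1B1. The median log2 fold change of the 12 was 0.07 at hour 2 against hour 0, where the median of all rows was -0.004. ARNT, the nuclear partner of AHR, differed by -0.40 ± 0.08 (SE) on the log2 scale at hour 2 (edgeR FDR = 3.7e-05), which is under the fold limit.

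CYP1A1, the classical AHR target, lies on chromosome 21 from 34340320 to 34346365 (plus strand). It had 10 to 132 counts per sample, above the limit of 0.0287 to 0.0588 CPM that a count of 0 would allow (3 counts of the total, counting error only). Angus cultures had CYP1A1 at 1.03, 0.813, 1.43 and 0.607 CPM at hour 0, at 0.215, 0.915, 0.443 and 0.505 CPM at hour 2, and at 0.383, 1.30, 0.900 and 0.366 CPM at hour 8. Holstein cultures had CYP1A1 at 0.569, 0.293, 0.545 and 0.220 CPM at hour 0, at 0.334, 0.766, 0.287 and 0.284 CPM at hour 2, and at 0.529, 0.286, 0.604 and 0.230 CPM at hour 8. The Angus samples lay above the Holstein samples at hour 0 and overlapped them at hours 2 and 8. With no filter on low counts, edgeR gave a log2 difference of -1.23 for Holstein against Angus at hour 0 (FDR = 0.028), and FDR values of 0.325 to 1.00 in the other 7 comparisons.

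CYP1B1, on chromosome 11 from 20493493 to 20499001 (minus strand), was well above 1 CPM in every sample. Angus cultures had CYP1B1 at 23.9, 24.9, 32.2 and 32.8 CPM at hour 0, at 10.6, 32.8, 27.7 and 23.6 CPM at hour 2, and at 17.6, 32.7, 24.8 and 25.5 CPM at hour 8. Holstein cultures had CYP1B1 at 30.6, 24.3, 28.3 and 41.8 CPM at hour 0, at 75.2, 29.6, 43.5 and 57.9 CPM at hour 2, and at 55.1, 29.8, 47.3 and 51.8 CPM at hour 8. Holstein animals 1, 3 and 4 were higher than every Angus sample at hours 2 and 8, and Holstein animal 2 lay among the Angus samples. With breeds combined, CYP1B1 had log2 fold changes of 0.33 ± 0.29 at hour 2 (edgeR FDR = 0.501) and 0.25 ± 0.22 at hour 8 (edgeR FDR = 0.526).

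CYP3A4 had the largest rise of the 7 genes. Its row lies on chromosome 25 from 37125929 to 37175162 (minus strand). Angus cultures had CYP3A4 at 4.01, 4.63, 6.45 and 4.13 CPM at hour 0, at 5.72, 5.11, 25.9 and 4.63 CPM at hour 2, and at 24.9, 26.2, 118.8 and 11.4 CPM at hour 8. Holstein cultures had CYP3A4 at 6.05, 8.37, 14.4 and 18.3 CPM at hour 0, at 9.12, 12.5, 19.2 and 25.5 CPM at hour 2, and at 81.0, 129.4, 109.7 and 203.8 CPM at hour 8. Angus animal 3 was above the other 3 Angus animals at every hour, lay above all 4 Holstein samples at hour 2 and lay among them at hour 8. CYP3A4 rose 10.6-fold from hour 0 to hour 8 (log2 fold change 3.40 ± 0.49, edgeR FDR = 3.5e-08) and 6.58-fold from hour 2 to hour 8 (2.72 ± 0.52, edgeR FDR = 1.5e-05), in 8 of 8 animals each. At hour 2 against hour 0 the difference was 0.70 ± 0.42 (edgeR FDR = 0.278), with a higher level in 8 of 8 animals.

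Which gene the CYP3A4 row measures is uncertain. It lies wholly inside the row of CYP3A5, which runs from 37002381 to 37242576 on the plus strand, and the library kit did not mark strand. The CYP3A5 row had more counts than the CYP3A4 row in 24 of 24 samples, and CYP3A4 was 10.9% to 37.7% of the CYP3A5 count at hour 0, 13.3% to 46.9% at hour 2 and 26.1% to 80.2% at hour 8. The RefSeq annotation of a later bovine assembly, ARS-UCD2.0, lists 4 CYP3A genes and gives CYP3A4 only as an older name of CYP3A28 and CYP3A74. CYP3A5 is there an older name of CYP3A28 and CYP3A76.

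The CYP3A5 row was called at hour 8 against hour 0 (log2 fold change 1.65, edgeR FDR = 1.4e-06) and against hour 2 (1.60, edgeR FDR = 3.9e-06). After the counts of the CYP3A4 row were subtracted, an alternative chosen after seeing the data, the remainder was 27.9 to 34.9 CPM at hour 0, 22.3 to 31.0 CPM at hour 2 and 29.3 to 50.5 CPM at hour 8. The remainder differed by 0.18 ± 0.10 (edgeR FDR = 0.286) at hour 8 against hour 0 and by 0.36 ± 0.12 (edgeR FDR = 0.0103) at hour 8 against hour 2, both under the fold limit. The added counts of the CYP3A5 row at hour 8 thus lay within the CYP3A4 row for the most part. The unnamed interval that follows the CYP3A4 row on its upstream side, from 37175163 to 37348779, also overlaps the CYP3A5 row. Its log2 fold change was -0.54 ± 0.12 (edgeR FDR = 1.9e-04) at hour 2 against hour 0, 0.91 ± 0.23 (edgeR FDR = 0.0017) at hour 8 against hour 0 and 1.46 ± 0.23 (edgeR FDR = 3.6e-08, called) at hour 8 against hour 2. The CYP3A4 row itself had 0.70, 3.40 and 2.72 in these comparisons, so the interval had the opposite sign at hour 2 and smaller values at hour 8.

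**Figure D2:**
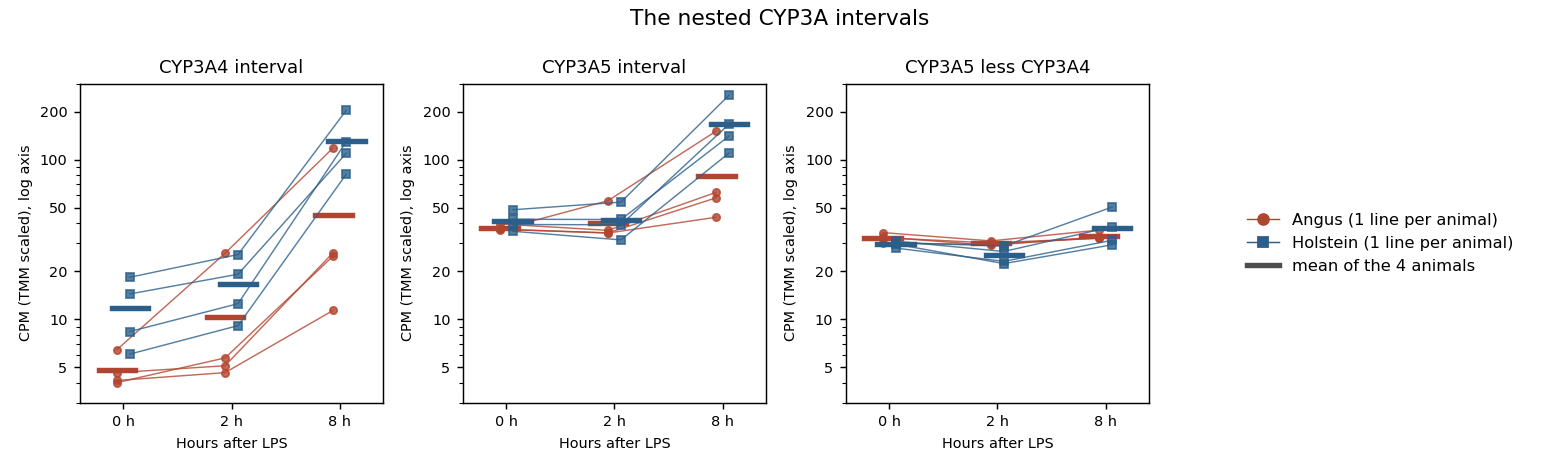
Level (y axis, TMM-scaled CPM, log axis) of the CYP3A4 row, of the CYP3A5 row that encloses it, and of CYP3A5 less CYP3A4 by hour after LPS (x axis: 0, 2 and 8 h), with 1 thin line per animal and thick bars for the mean of 4 animals. The first 2 climb at 8 h, while the remainder stays between 22.3 and 50.5 CPM in all 24 samples.

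Around CYP3A4, the other listed genes of the CYP3A subfamily and of xenobiotic sensing gave no calls beyond CYP3A4 and CYP3A5 in any comparison. Of 14 genes listed, 12 were on a row and 8 were tested, and CYP3A4 and CYP3A5 were the 2 called at hour 8 against hour 0. The share of all rows called there was 1.42%, and these 2 nested rows are not separate calls. The median log2 fold change of the 8 at hour 8 was -0.03, beside -0.01 for all rows. NR1I2 and NR1I3, the nuclear receptors PXR and CAR that drive CYP3A genes in liver, and HNF4A did not reach the filter. POR, the electron donor of microsomal P450 enzymes, differed by -0.08 ± 0.09 at hour 8 (edgeR FDR = 0.644).

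CYP7B1, on chromosome 14 from 30983213 to 31154010 (minus strand), rose later in the challenge like CYP3A4. Angus cultures had CYP7B1 at 2.50, 2.70, 1.56 and 1.45 CPM at hour 0, at 2.38, 3.88, 6.96 and 1.47 CPM at hour 2, and at 3.78, 5.37, 7.24 and 2.34 CPM at hour 8. Holstein cultures had CYP7B1 at 1.92, 2.05, 1.91 and 1.63 CPM at hour 0, at 2.38, 4.21, 2.57 and 2.51 CPM at hour 2, and at 10.1, 16.2, 7.51 and 13.8 CPM at hour 8. The Holstein hour 8 samples lay above all other 20 samples. CYP7B1 rose 4.21-fold from hour 0 to hour 8 (log2 fold change 2.07 ± 0.32, edgeR FDR = 3.1e-08) and 2.52-fold from hour 2 to hour 8 (1.34 ± 0.37, edgeR FDR = 0.0031), in 8 of 8 animals each. At hour 2 against hour 0 it was 0.74 ± 0.27 higher (edgeR FDR = 0.0281), under the fold limit, with a higher level in 3 of 4 Angus and 4 of 4 Holstein animals.

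The unnamed interval just downstream of CYP7B1, from 30968780 to 30983212, moved as the gene did. It was also singled out after its values were seen. Its log2 fold change was 2.35 ± 0.37 (edgeR FDR = 1.3e-07) at hour 8 against hour 0 and 1.74 ± 0.43 (edgeR FDR = 7.1e-04) at hour 8 against hour 2.

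Of the 11 listed genes of oxysterol 7-alpha-hydroxylation and its receptors, all were on a row and 8 were tested. CYP7B1 was the single member called between hours. It was 1 of 8 at hour 8 against hour 0, beside 1.42% of all rows, and 1 of 8 against hour 2, beside 2.76%. CH25H, which makes 25-hydroxycholesterol, differed by 0.15 ± 0.23 (SE) at hour 8 against hour 0 (edgeR FDR = 0.751), and GPR183, the receptor for 7-alpha-hydroxylated oxysterols, by -0.004 ± 0.08 (SE, edgeR FDR = 0.986). The median log2 fold change of the 8 at hour 8 was 0.03, beside -0.01 for all rows.

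Across the P450 superfamily, 40 rows carried a CYP symbol and 14 to 16 of them were tested in a comparison. At hour 2, CYP2U1, a fatty acid hydroxylase, was the 1 called gene and fell (-1.28 on the log2 scale, edgeR FDR = 5.0e-09). At hour 8 against hour 0 the called genes were CYP3A4, CYP3A5 and CYP7B1, all higher, 3 of 15 tested against 1.42% of all rows. The CYP3A5 row encloses the CYP3A4 row, so their calls are not separate. Less the CYP3A4 counts, CYP3A5 differed by 0.18 ± 0.10 (edgeR FDR = 0.286) and was not called. At hour 8 against hour 2 the same 3 were higher and 1 was lower, of 14 tested against 2.76% of all rows. The lower gene was CYP26B1, a retinoic acid hydroxylase (-1.22, edgeR FDR = 2.6e-04). It had risen from hour 0 to hour 2 in 4 of 4 animals of each breed. From hour 0 to hour 8 its mean log2 change was -0.287 in Angus and -0.585 in Holstein animals.

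**Figure D3:**
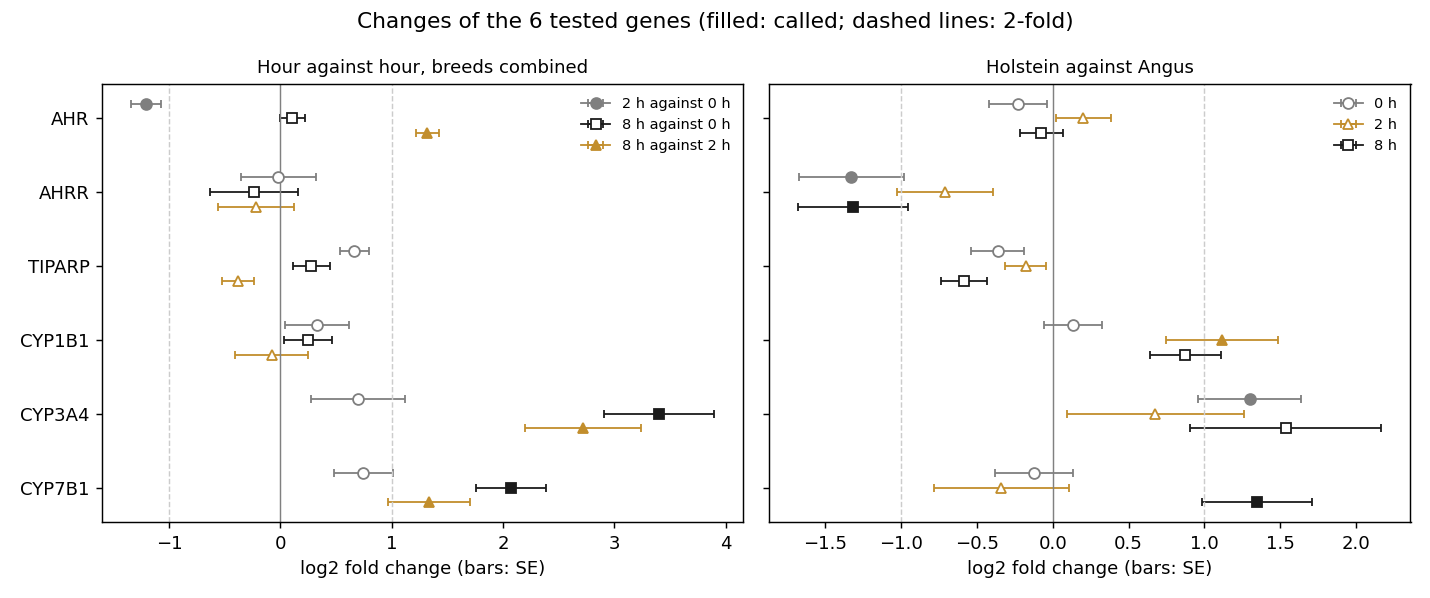
log2 fold change with its SE (x axis) of the 6 tested genes (y axis), for hour against hour with the breeds combined (left) and for Holstein against Angus at each hour (right). Filled symbols are called, among them the CYP3A4 and CYP7B1 rises to 8 h and the AHR dip at 2 h on the left, and the lower AHRR of Holstein cultures at 0 and 8 h on the right.

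The second comparison set Holstein against Angus cultures at each hour. At hour 0, 2 of the 6 tested genes were called, CYP3A4 and AHRR, against 3.81% of 20385 rows. At hour 2 CYP1B1 was called, 1 of 6 against 4.44% of 20184 rows. At hour 8 CYP7B1 and AHRR were called, 2 of 6 against 3.24% of 20679 rows. AHR and TIPARP were called at no hour.

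The repressor AHRR was lower in Holstein cultures. The log2 difference was -1.33 ± 0.35 at hour 0 (2.51-fold, edgeR FDR = 0.0034), -0.71 ± 0.32 at hour 2 (edgeR FDR = 0.101) and -1.31 ± 0.36 at hour 8 (2.49-fold, edgeR FDR = 0.0051). Groups did not overlap at hour 0, while at hours 2 and 8 the highest Holstein sample was above the lowest Angus sample. Without the samples counted differently, 3 of them at hour 0, the hour 0 difference was -1.14 (edgeR FDR = 0.301) and was not called. That fit leaves out Angus animal 4 and Holstein animals 2 and 4, and its calls over all rows fell from 776 to 259. The parts in this of the smaller groups and of whatever set these samples apart were not tested. The unnamed interval downstream of AHRR, from 71790495 to 71817040, was lower in Holstein cultures at all 3 hours, with log2 differences of -1.55 ± 0.39, -1.08 ± 0.32 and -1.73 ± 0.35 and edgeR FDR of 0.0028, 0.0076 and 1.2e-04. It held 17228 counts where the AHRR row held 3380, and it was singled out after its values were seen.

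CYP1B1 differed between the breeds after LPS. The log2 difference was 0.13 ± 0.19 at hour 0 (edgeR FDR = 0.709), 1.11 ± 0.37 at hour 2 (2.17-fold, edgeR FDR = 0.0206) and 0.87 ± 0.23 at hour 8 (1.83-fold, edgeR FDR = 0.0039), the last under the fold limit. At hour 2 the call rested on single animals, since it was lost without Angus animal 1 (0.87), Angus animal 4 (1.11, edgeR FDR = 0.0673), Holstein animal 1 (0.88, edgeR FDR = 0.0999) or Holstein animal 4 (1.06, edgeR FDR = 0.0742). The quasi-likelihood F test gave an FDR of 0.0668 there. At hour 8 the difference passed the fold limit without Angus animal 2 (1.03) or Holstein animal 2 (1.04). The unnamed interval downstream of CYP1B1, from 20448770 to 20493492, differed by 1.11 ± 0.42 at hour 2 (edgeR FDR = 0.0431) and 0.77 ± 0.22 at hour 8 (edgeR FDR = 0.00699). It too was singled out after its values were seen. The interval just upstream of CYP1B1 differed by -0.23 ± 0.18 at hour 2 (edgeR FDR = 0.399) and 0.02 ± 0.22 at hour 8 (edgeR FDR = 0.973).

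CYP3A4 was 2.46-fold higher in Holstein than in Angus cultures before LPS (log2 difference 1.30 ± 0.34, edgeR FDR = 0.0036). The lowest Holstein sample, 6.05 CPM, was below the highest Angus sample, 6.45 CPM, and the other 6 samples did not overlap. The call was lost without the samples counted differently (1.02, edgeR FDR = 0.238), a fit that also had fewer animals of each breed. It was lost too with all 24 samples in one model (1.29, edgeR FDR = 0.116). The CYP3A4 and CYP3A5 rows summed differed by 0.34 (edgeR FDR = 0.13). That sum adds the rest of the enclosing CYP3A5 row, which itself differed by -0.13 ± 0.10 at hour 0 (edgeR FDR = 0.422). Its smaller value therefore cannot show how firm the CYP3A4 call is. At hours 2 and 8 the differences of 0.68 ± 0.58 (edgeR FDR = 0.447) and 1.53 ± 0.63 (edgeR FDR = 0.0843) were not called. Angus animal 3 decided both values. Without it the difference was 1.69 at hour 2 (edgeR FDR = 2.8e-05) and 2.65 at hour 8 (edgeR FDR = 8.1e-09). Its hour 2 sample was one of those counted differently, with 72.2 bases of coverage per CYP3A4 count beside 62.0 to 68.3 in the 20 other samples, while its hour 8 sample was not. The same animal had the highest IL8, IL6 and NFKBIA of the 4 Angus animals at hours 2 and 8, with IL6 at 204.0 and 127.9 CPM. The part in the CYP3A4 values of whatever set that hour 2 sample apart, and of this stronger response, was not tested.

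CYP7B1 was higher in Holstein cultures at hour 8, where no Angus sample reached the lowest Holstein sample. The log2 difference was -0.12 ± 0.26 at hour 0 (edgeR FDR = 0.806), -0.34 ± 0.44 at hour 2 (edgeR FDR = 0.641) and 1.34 ± 0.36 at hour 8 (2.54-fold, edgeR FDR = 0.0045). The interval downstream of it differed by 1.59 ± 0.41 at hour 8 (edgeR FDR = 0.0029).

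TIPARP and AHR differed less. The log2 difference of TIPARP, Holstein less Angus, was -0.59 ± 0.15 at hour 8 (edgeR FDR = 0.0023), under the fold limit, with every Angus sample above every Holstein sample. The differences in AHR were -0.23 ± 0.19, 0.20 ± 0.18 and -0.08 ± 0.14 at hours 0, 2 and 8, with edgeR FDR of 0.475, 0.461 and 0.765.

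Outside the 7 genes, 3 listed genes were called between breeds. Over all rows the shares called at hours 0, 2 and 8 were 3.81%, 4.44% and 3.24%. With the 7 genes included, the P450 superfamily had 1 higher and 1 lower call of 15 tested at hour 0. At hour 2 it had 1 higher of 14, and at hour 8 it had 2 higher and 1 lower of 16. The oxysterol list had 1 lower call of 8 tested at hour 2. CYP26B1 was lower in Holstein cultures at hour 0 (-1.02 on the log2 scale, edgeR FDR = 0.0065) and at hour 8 (-1.30, edgeR FDR = 7.4e-04). CH25H was lower in Holstein cultures at hour 2 (-1.38, edgeR FDR = 8.9e-05). CYP3A5 was higher in Holstein cultures at hour 8 (1.10, edgeR FDR = 0.0448), and its remainder after subtraction of CYP3A4 differed by 0.16 ± 0.18 (edgeR FDR = 0.577). In the oxysterol list the median difference was 0.26, 0.23 and 0.54 at hours 0, 2 and 8. The medians of all rows were -0.002, -0.009 and 0.01. At hour 8 CYP7B1 was the 1 call of that list, of 8 tested.

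**Figure D4:**
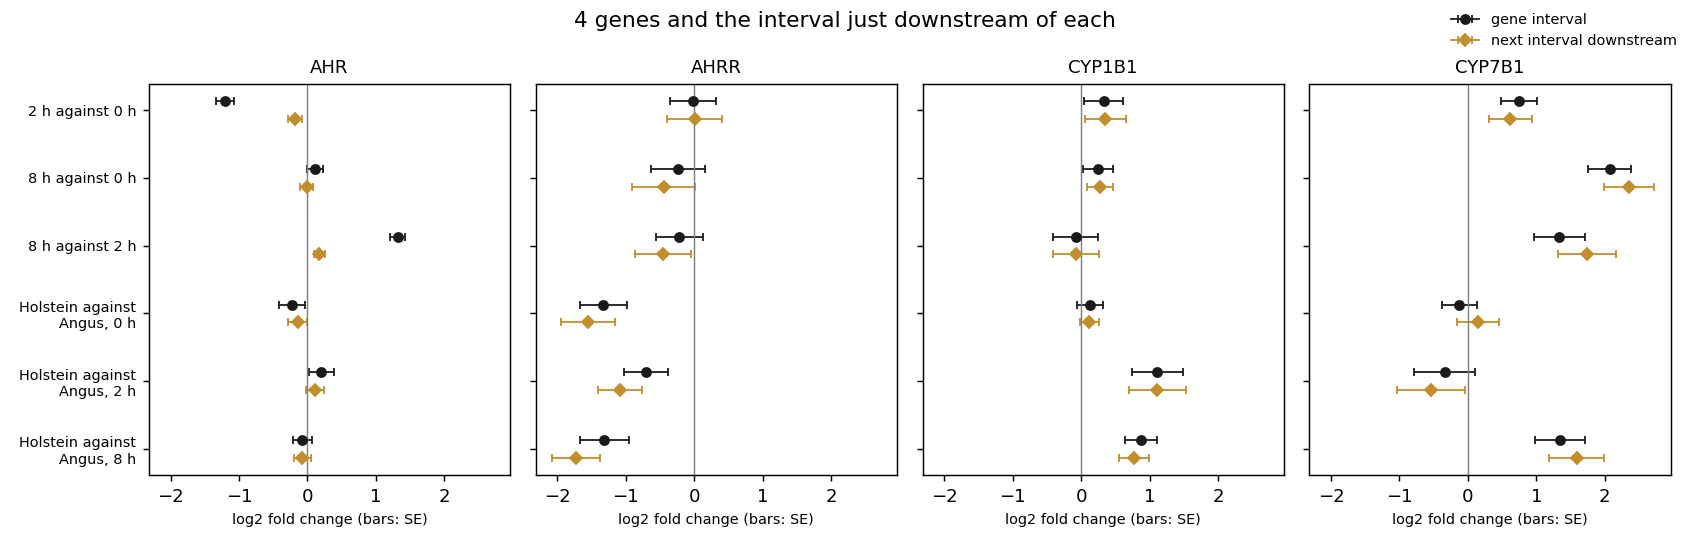
log2 fold change with its SE (x axis) of AHR, AHRR, CYP1B1 and CYP7B1 (circles) and of the unnamed interval just downstream of each (diamonds), for the 6 comparisons on the y axis. The pairs lie within the sum of their SEs except for AHR at 2 h against 0 h, -1.21 for the gene and -0.18 for the interval, and at 8 h against 2 h.

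The third comparison tested whether the breeds differed in their change after LPS, by the interaction of breed and hour. None of the 6 tested genes was called at hour 2, against 0.278% of 20157 rows, or at hour 8, against 0.0982% of 20368 rows. The unadjusted edgeR p of CYP1B1 was 0.025 at hour 2 and 0.021 at hour 8, and that of CYP7B1 was 0.0015 at hour 8. The share of all rows with such p-values was not taken, so these are no more than descriptions. DESeq2 and the quasi-likelihood F test also called none at either hour. Each animal gave a sample at each hour, and a fit with the animal as a replicate block called 1 of the 6 genes at each hour, CYP1B1 and CYP7B1, against 0.625% of rows at hour 2 and 0.491% at hour 8.

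For CYP1B1 the change from hour 0 to hour 2 was -0.37 ± 0.65 (SD, n = 4) in Angus and 0.67 ± 0.44 (SD, n = 4) in Holstein cultures on the log2 scale. The level was higher in 1 of 4 Angus and 4 of 4 Holstein animals, and the ranges of the changes overlapped. The interaction was 0.99 ± 0.44 (SE, edgeR FDR = 0.921) without the block and 1.04 with it (edgeR FDR = 0.0234, called). At hour 8 against hour 0 the changes were -0.20 ± 0.40 in Angus and 0.55 ± 0.29 in Holstein cultures (SD, n = 4 each). The interaction at hour 8 was 0.73 ± 0.32 (SE, edgeR FDR = 1.00) without the block and 0.75 with it, under the fold limit.

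For CYP7B1 the change from hour 0 to hour 8 was 1.12 ± 0.75 (SD, n = 4) in Angus and 2.61 ± 0.52 (SD, n = 4) in Holstein cultures. Angus animal 3, at 2.22, was inside the Holstein range of 1.98 to 3.08, and the other 3 Angus animals were below it. The interaction was 1.46 ± 0.46 (SE, edgeR FDR = 0.389) without the block, and it was called with the block (1.48, edgeR FDR = 0.0073) and without Angus animal 3 (1.86, edgeR FDR = 0.0128).

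For CYP3A4 the change from hour 0 to hour 8 was 2.70 ± 1.13 (SD, n = 4) in Angus and 3.52 ± 0.44 (SD, n = 4) in Holstein cultures. The interaction was 0.23 ± 0.78 (SE, edgeR FDR = 1.00) at hour 8 and -0.62 ± 0.73 (SE, edgeR FDR = 1.00) at hour 2. Without Angus animal 3 these values were 1.18 and 0.21, and neither was called. From hour 2 to hour 8 every Holstein animal rose more than every Angus animal in both CYP3A4 and CYP7B1. The log2 changes were 2.52 to 3.37 against 1.30 to 2.36 for CYP3A4 and 1.55 to 2.46 against 0.06 to 0.67 for CYP7B1. Over the same hours AHR and AHRR separated the other way, AHRR with -0.459 to 0.375 in Angus and -0.850 to -0.463 in Holstein animals. From hour 0 to hour 8 TIPARP did too, with 0.19 to 0.53 in Angus and 0.13 to 0.18 in Holstein animals. None of these separations was tested, and the share of all rows that separate so was not taken.

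**Figure D5:**
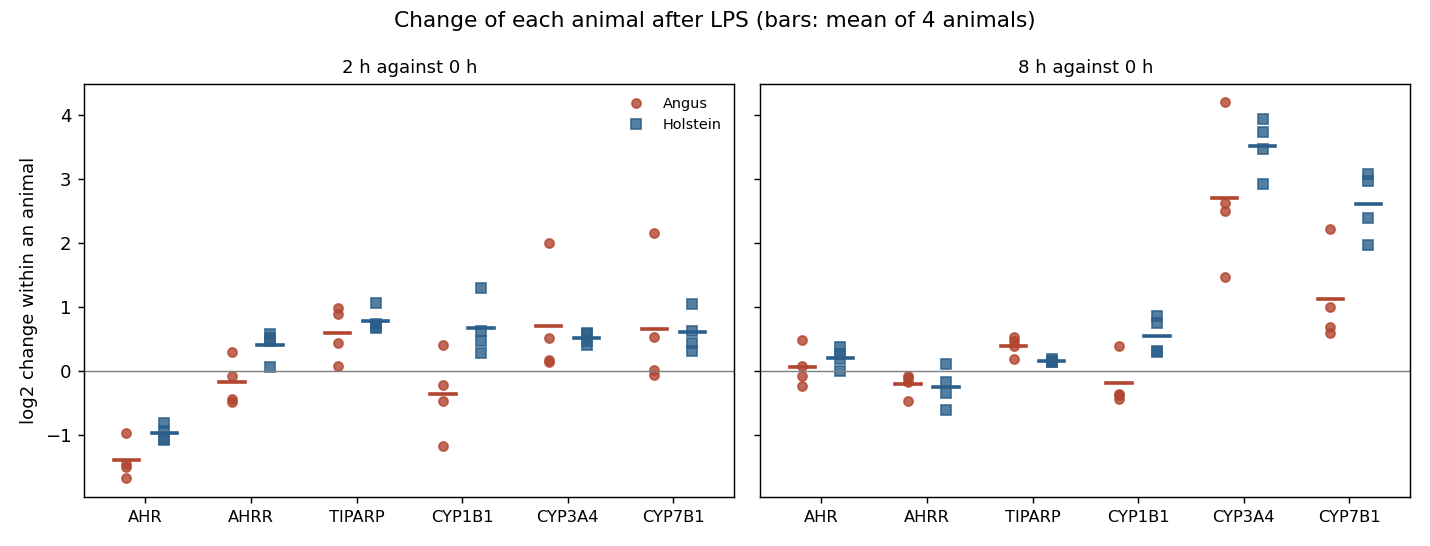
log2 change within each animal (y axis) from 0 h to 2 h (left) and from 0 h to 8 h (right) for the 6 tested genes (x axis), with bars at the mean of the 4 animals of a breed. CYP1B1 is higher after LPS in all 4 Holstein and in 1 of 4 Angus animals at both hours, and Angus animal 3 has the largest Angus change of CYP3A4 and CYP7B1.

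The order of the 6 groups summarises each gene. For AHR both hour 2 groups were lowest, and the step from Holstein hour 2 to Holstein hour 0 was the single one between neighbours without overlap. For CYP7B1 the step from Angus hour 8 to Holstein hour 8 was the single such step. For CYP3A4 the order of the means was Angus hour 0, Angus hour 2, Holstein hour 0, Holstein hour 2, Angus hour 8 and Holstein hour 8, with every neighbour overlapping. For AHRR the 3 Holstein groups were lowest and for CYP1B1 the 3 Angus groups, again with overlap at each step.

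Genes whose log2 level followed each of these genes most closely were found by Pearson correlation over the 24 samples among 12958 rows. This is a description, since samples share animals and hours. CYP3A4 was followed by HIF1A (r = 0.951), the oxygen-regulated partner of ARNT, and by LOC100848505 (r = 0.952), whose row overlaps HIF1A on the other strand and cannot be told apart from it. CYP7B1 was followed by LOC100848019 (r = 0.945) and by VCAM1 (r = 0.937), an adhesion molecule for leukocytes. AHR was followed by AASDH (r = 0.951), ZNF22 (r = 0.943) and CHAMP1 (r = 0.936). AHRR was followed by PDE1C (r = 0.926), a phosphodiesterase, and AQP1 (r = 0.907), a water channel. The closest gene for TIPARP was DPH3 (r = 0.840), and FOSL1, an AP-1 subunit, was at r = 0.830. CYP1B1 was followed less closely, by FERMT2 at r = 0.770 and ARHGEF5 at r = 0.767.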

How the data were processed

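Poly-A RNA of each culture was made into unstranded TruSeq libraries, and the authors aligned reads to UMD v3.1 with NextGENe and deposited per sample raw read counts and average coverage per row, over gene and gene-free intervals. CASAVA 1.7 is named in the submitters' processing notes. Counts were used for all tests. Coverage served to compute bases per count. Groups came from the sample titles. Rows with at least 1 CPM in 50% of the samples compared were tested with the edgeR likelihood-ratio test (edgeR 4.0.16, R 4.3.3, TMM scaling), fitted over all rows of each comparison, with Benjamini-Hochberg FDR. The scripts were tested on simulated counts. The 7 genes and the pathway lists were chosen with earlier results of these data known. Named were the 7 genes, each listed gene that was called, IL8, the next unnamed interval on either side, and some of the most alike genes, of which 1 is not reported here. ARNT, POR, CH25H, GPR183, NR1I2, NR1I3 and HNF4A were also named, after their values were seen.

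Same-animal samples deviated together from the means of their breed and hour (r of at least 0.432 in every pair, means 0.611 to 0.658). Other animals of the breed had means of -0.22 to -0.20, but centring groups of 4 itself draws these below 0. The titles give the animal, so the replicate block of the animal is paired. Equal numbers in different breeds are different animals. No sample was a repeat of another: in the 36 pairs within groups the chi-square statistic, divided by its degrees of freedom, was 29.6 to 414.6. Alternatives were DESeq2 1.42.0, the quasi-likelihood F test, other scalings and filters, other models, the block, and leaving out each animal or the 4 samples counted differently. Total counts of 51014538 to 104406293 exceed the reads matched, 31440126 to 66287735, and the cause was not tested. The p-values of the breed comparisons measure the spread between animals, with 1 culture of each. The hour comparisons with breeds combined had no term for breed or animal. Their p-values therefore mix breed and animal spread and leave the pairing out. Outside the block, the interaction fits also had no term for the animal. A planned motif search in promoters was not run and no sequences are shown.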

Additional observations from a re-analysis of the deposited data

Results flagged for a closer look

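Of 42 groups of 4 samples, 4 held a sample far from the others by Dixon's test, which chance alone flags in about 1 in 20 groups. Angus animal 3 stood above the other Angus animals in CYP3A4 at hour 2 (25.9 CPM) and at hour 8 (118.8 CPM). Holstein animal 2 stood above the other Holstein animals at hour 2 in CYP1A1 (0.766 CPM) and in CYP7B1 (4.21 CPM). These genes share samples, so the 4 are not separate events.

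The breeds differed in their change after LPS in 3 results of the edgeR fit that took each animal as a replicate block. The log2 differences of the changes, Holstein less Angus, were 1.04 for CYP1B1 at hour 2, 0.75 for CYP1B1 at hour 8 and 1.48 for CYP7B1 at hour 8. Without the block none of the 3 passed an FDR of 0.05.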

How the results depend on the processing

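Alternatives gave 826 values of single genes, of which 772 kept their direction and their side of the call, and 135 counts of called genes, of which 121 stayed within 1.5 times. The calls of AHR at 2 h, and of AHR, CYP3A4 and CYP7B1 at 8 h, were kept in the hour comparisons under each alternative run. The genes called moved from 1 to 3 (2 h against 0 h) and from 2 to 4 (Holstein against Angus at 8 h) with FDR alone. Between breeds they moved from 2 to 0 at 0 h and from 1 to 2 at 2 h without the samples counted differently, to 1 at 0 h with all 24 samples in one model, and to 0 at 2 h with the quasi-likelihood F test. Leaving out 1 animal gave 0 to 2 at 2 h and 0 to 1 for the interaction at 8 h. The replicate block of the animal moved each interaction count from 0 to 1 and changed no other call, although edgeR FDR values under 0.05 were then reached, below the fold limit, by CYP3A4 at 2 h against 0 h (0.60, FDR = 0.0021), TIPARP at 8 h against 0 h (0.27, FDR = 7.4e-05) and the CYP1B1 interaction at 8 h (0.75, FDR = 0.0175).

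Values that changed sign were all uncalled, and their causes were not tested. For AHRR at 2 h against 0 h they were 0.0557 without the samples counted differently, 0.0923 with all 24 samples, 0.0818 with a breed term and 0.0827 with the replicate block. Without the samples counted differently, AHR between breeds at 0 h was 0.0107, CYP7B1 between breeds at 2 h 0.18, and the interactions were 0.65 (CYP3A4) and 0.40 (CYP7B1) at 2 h and -0.0946 (AHR) and -0.18 (AHRR) at 8 h. The AHRR interaction at 8 h was -2.3e-05 with the quasi-likelihood F test and -0.0185 with the replicate block, and CYP1B1 at 8 h against 2 h was 0.0244 with the block. CYP3A5 less CYP3A4 was -0.18 at 2 h against 0 h, and -0.13 and -0.25 between breeds at 0 and 2 h. Leaving out 1 animal gave -0.0775 to 0.11 for AHRR at 2 h against 0 h, -0.12 to 0.0274 for CYP1B1 at 8 h against 2 h, and, between breeds, -0.0387 to 0.24 for CYP1B1 at 0 h, -0.26 to 0.0402 for CYP7B1 at 0 h and -0.60 to 0.18 for CYP7B1 at 2 h. For the interactions it gave -0.83 to 0.21 (CYP3A4) and -0.47 to 0.41 (CYP7B1) at 2 h, and -0.0292 to 1.18 (CYP3A4) and -0.15 to 0.13 (AHRR) at 8 h.

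Over all rows, FDR alone called 4436, 2606 and 4822 rows between hours in place of 568, 289 and 560, and 2816, 4050 and 3411 between breeds in place of 776, 897 and 670. Rows with a symbol alone gave 369 at 2 h against 0 h and 367 at 8 h against 2 h. Between breeds, 259 rows were called at 0 h without the samples counted differently, 515 at 0 h and 446 at 8 h without Angus animal 4, and 1127 at 8 h without Angus animal 3. The 56 interaction calls at 2 h became 16 with the quasi-likelihood F test, 28 with symbols alone, 88 with FDR alone, 126 with the replicate block, 33 without Angus animal 4 and 34 without Holstein animal 1. The 20 at 8 h became 0 with the F test, 6 without the samples counted differently, 100 with the replicate block, and 8, 62 and 2 without Angus animal 1, Angus animal 3 and Holstein animal 4.

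Depth limits AHRR and CYP1A1 most, which rested on 53 to 377 and on 10 to 132 counts a sample.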
